A study of Homo sapiens with 16 samples.

Results

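The response of OVCAR3 cells to olaparib was measured across all genes by comparing 4 libraries of olaparib-treated cells with 4 libraries of DMSO-treated cells, the 8 OVCAR3 libraries among the 16 of the series. OVCAR3 is an established serous ovarian carcinoma cell line with an intact BRCA1 gene, cultured in RPMI 1640 with FBS and bovine insulin. Cells received 7.5 µM olaparib dissolved in DMSO, the half-maximal inhibitory concentration found for this line, or DMSO alone. RNA was taken after 96 h in 4 replicates of each treatment. The other 8 libraries come from UWB1.289, an ovarian carcinoma line with a BRCA1 mutation, given 3.5 µM olaparib or DMSO for 96 h in another medium. One line stands for each BRCA1 state, so the line, its BRCA1 state, its dose and its medium cannot be told apart. All cells of the 8 OVCAR3 libraries share the line, the medium, the solvent and the time.

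Olaparib blocks PARP1 and PARP2, enzymes that bind DNA strand breaks and attach chains of ADP-ribose to themselves and to chromatin proteins, and it holds the enzymes on the DNA. A dividing cell meets such trapped complexes at its replication forks, where breaks can arise that are repaired by homologous recombination. DNA damage is also known to feed into transcription, through p53, through NF-kB, which switches on chemokines and survival genes, and through the sensing of cytosolic DNA, which switches on interferon-stimulated genes.

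Libraries were of the QuantSeq type, which reads the 3′ ends of polyadenylated transcripts, and the values are read counts per gene. Total counts of the 8 libraries ranged from 5706282 to 7152552. Counts were scaled with TMM factors to normalized counts and compared by the quasi-likelihood test of edgeR, with p-values adjusted by Benjamini and Hochberg over the 13031 genes with enough counts. Olaparib replicate 4 stood apart on the second principal component, at 24.4 against -12.3 to -5.69 in the other 3 olaparib libraries, and counts without it are given below. Of 12 leukocyte, 12 fibroblast and 12 endothelial markers 1, 1 and 2 had enough counts to be tested. COL1A1, a fibroblast marker, had 161 ± 27.3 to 239 ± 25.7 normalized counts (mean ± SD, n = 4, DMSO to olaparib) and was raised (adjusted p = 0.00296), as was ERG, an endothelial marker (37.6 ± 6.1 to 59.5 ± 9.6, adjusted p = 0.0234), while EGFL7 had 93.1 ± 7.53 to 81.7 ± 20.2 and was not called. The markers CD3D, MS4A1, CD163, COL3A1, LUM, EMCN and ROBO4 had no count in any OVCAR3 library, and the part of the others in the results was not tested. The ovarian epithelial markers were all detected. PAX8, the Müllerian transcription factor that marks serous carcinoma, stood at 2936 ± 328 to 2823 ± 238 normalized counts (mean ± SD, n = 4, DMSO to olaparib), while ESR1, the oestrogen receptor, stayed below 10 counts in each library and was not tested.

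Olaparib-treated cells differed from DMSO-treated cells in 31.2% of the tested genes, most of them by less than 2-fold. In the olaparib libraries 1999 of 13031 genes (15.3%) were raised and 2067 (15.9%) were lowered at an adjusted p below 0.1 and an average normalized count above 10, here called a change at any size. With a change of more than 2-fold as a further limit, 378 genes (2.90%) were raised and 304 (2.33%) were lowered. The median log2 fold change over all tested genes was -0.01. The raised side reached further, since 71 of the 378 raised genes but 16 of the 304 lowered genes changed by more than 4-fold, and 26 against 2 by more than 8-fold. The lowered genes were many but moderate, with a median log2 fold change of -1.25 against 1.38 for the raised ones. Counts were low on both sides, and 288 of the raised and 227 of the lowered genes averaged at most 100 normalized counts. The groups did not overlap, with olaparib higher, in 1640 genes (12.6%) and, with olaparib lower, in 1704 (13.1%), and 351 of the 378 and 267 of the 304 were among these. Without olaparib replicate 4 the counts beyond 2-fold were 384 and 320, and at any size 2173 and 2198. The cells were sequenced in bulk from a treated culture, so a smaller share of cells that express a gene and less RNA of that gene per cell cannot be told apart.

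**Figure D1:**
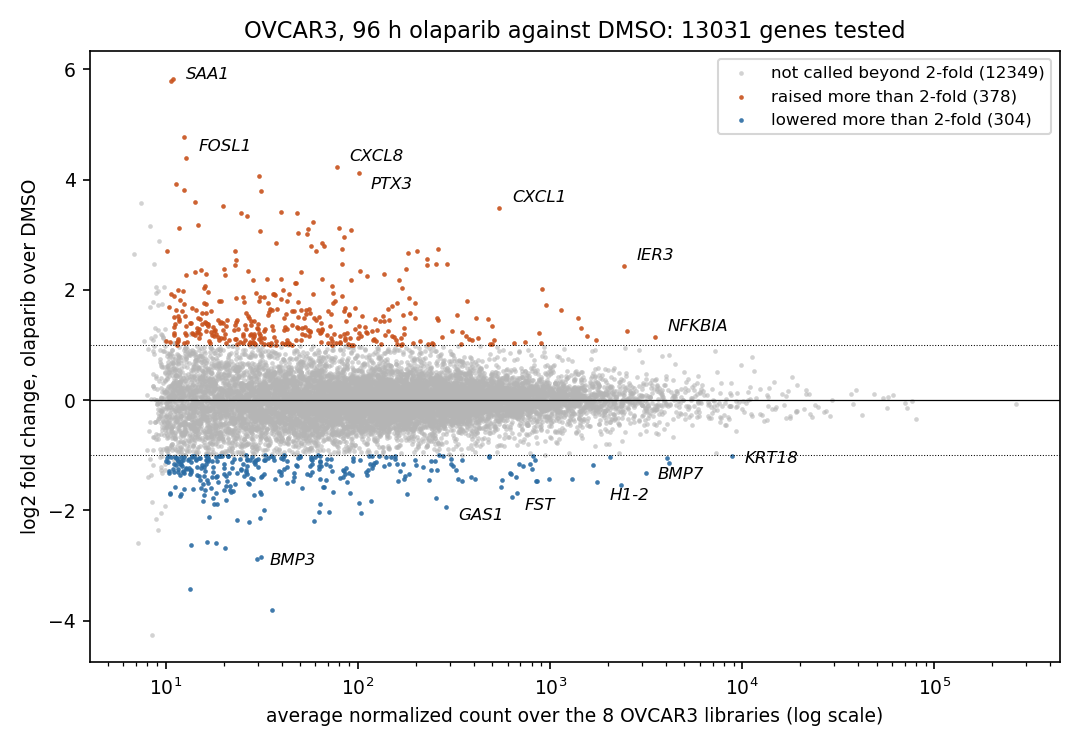
Log2 fold change of each tested gene in OVCAR3 (olaparib over DMSO, 4 libraries each) against its average normalized count on a log scale. Orange points are the 378 genes raised and blue points the 304 genes lowered by more than 2-fold, and the orange cloud reaches further from 0 than the blue one.

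Among the gene lists, the targets of NF-kB had the highest median rise. Of the 34 tested members of a list of 45 NF-kB target genes, 28 were raised, 21 of them by more than 2-fold, and none was lowered, against 15.3% raised and 15.9% lowered among all genes. The median log2 fold change of the list was 1.38. The members came from several roles, namely chemokines, feedback inhibitors of NF-kB, subunits of NF-kB itself and secreted defence proteins. The list was written with earlier results of these libraries known, so its count describes these libraries and is no independent evidence.

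Chemokines were among the steepest rises of the list. CXCL1 (hg38, chr4:73869393-73871308 on the plus strand), a ligand of the neutrophil receptor CXCR2, had 96, 114, 76.4 and 72.9 normalized counts in the 4 DMSO libraries and 1301, 1023, 917 and 753 in the 4 olaparib libraries. The lowest olaparib library was several times the highest DMSO library. The change was 11.2-fold (log2 fold change 3.48 ± 0.16 SE, adjusted p = 3.52e-11), the smallest p of all genes. CXCL8, another CXCR2 ligand, had 4.36, 11.5, 10.5 and 4.73 normalized counts in the 4 DMSO libraries and 184, 134, 156 and 115 in the 4 olaparib libraries (log2 fold change 4.23 ± 0.26 SE, adjusted p = 4.64e-10). Its groups did not overlap either. Of the 9 chemokine genes tested, 8 were raised by more than 2-fold, beside 2.90% of all genes. They were CXCL1, CXCL2, CXCL3, CXCL6, CXCL8, CXCL16, CCL20 and CX3CL1, named after their values were seen. The class median was 3.11 on the log2 scale. A gene with enough counts in the olaparib libraries alone was tested, while chemokines with few counts in both groups were not. The count and the median are therefore shaped by this filter and describe the tested genes only. CXCL6 lost its call with all 16 libraries in the fit. CX3CL1, which is made as a membrane-bound chemokine, rose from 54.9 ± 23.5 to 352 ± 36.4 normalized counts (log2 fold change 2.7 ± 0.18 SE, adjusted p = 1.31e-09).

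Inhibitors of the pathway rose with its outputs. ZC3H12A, given below with them, is not a member of the list and was named for its small p among all genes. TNFAIP3, the deubiquitinase A20 that limits NF-kB signalling, had 51.3, 35.7, 56.3 and 53 normalized counts in the 4 DMSO libraries and 313, 306, 271 and 372 in the 4 olaparib libraries (log2 fold change 2.67 ± 0.15 SE, adjusted p = 1.68e-10). NFKBIA, which encodes the inhibitor IκBα and was among the 5 raised genes with the largest gain in read share, had 2081, 2289, 2191 and 2139 normalized counts in the 4 DMSO libraries and 5264, 4547, 4656 and 4794 in the 4 olaparib libraries (log2 fold change 1.15 ± 0.07 SE, adjusted p = 4.64e-10). All olaparib libraries of both genes were above all DMSO libraries. ZC3H12A, a ribonuclease that degrades inflammatory mRNAs, had 54.5, 56.4, 68.8 and 50.1 normalized counts in the 4 DMSO libraries and 301, 298, 287 and 311 in the 4 olaparib libraries (log2 fold change 2.38 ± 0.13 SE, adjusted p = 1.22e-10), and TNFAIP2, a gene induced by TNF, rose from 1478 ± 74.4 to 3535 ± 632 (log2 fold change 1.26 ± 0.1 SE, adjusted p = 1.90e-08). The gain of TNFAIP2 was smallest in olaparib replicate 4, at 2689.6 against 3590.0 to 4219 in the other 3 olaparib libraries. Among the subunits, NFKB1, NFKB2, RELB and REL were raised with log2 fold changes of 0.68, 1.24, 1.5 and 0.36, and REL lost its call without DMSO replicate 1, DMSO replicate 4 or olaparib replicate 1. TRAF1, CFLAR, MMP9, BIRC2, BCL2L1 and LIF were the 6 tested members without a call, with log2 fold changes from -0.38 to 1.2. LIF passed the test under 4 alternatives, with an adjusted p of 0.00647 without olaparib replicate 4, 0.0838 without DMSO replicate 3, 0.0422 with the replicate block and 0.0347 without the filter on low counts.

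Secreted defence proteins also rose. Of those below, PTX3 and PI3 are not members of the NF-kB list and were named for their small p among all genes. C3, the central component of complement, had 543, 592, 489.9 and 588 normalized counts in the 4 DMSO libraries and 1715, 1816, 1614 and 1741 in the 4 olaparib libraries (log2 fold change 1.64 ± 0.08 SE, adjusted p = 5.12e-11). Values within a group were close, and the groups lay far apart. PTX3, a soluble pattern recognition molecule of the pentraxin family, had 8.72, 9.21, 15.3 and 9.46 normalized counts in the 4 DMSO libraries and 183, 239, 173 and 168 in the 4 olaparib libraries (log2 fold change 4.13 ± 0.21 SE, adjusted p = 6.95e-11), so its DMSO values were near the lower end of what was counted. PI3, the protease inhibitor elafin, had 46.9, 87.5, 56.3 and 79.5 normalized counts in the 4 DMSO libraries and 478, 500.4, 364 and 470.0 in the 4 olaparib libraries (log2 fold change 2.74 ± 0.16 SE, adjusted p = 2.22e-10). SAA1, an acute-phase protein, had the largest fitted rise of the list (named after its values were seen), but its 4 DMSO libraries held 1 read in all against 89 in the olaparib libraries, so the size of its change is poorly set.

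The promoters of genes from this group hold the letters of the kappa B site, the DNA element bound by NF-kB. Promoter windows of 250 bases before to 50 bases after the start site were taken from RefSeq (GRCh38.p14) and searched on both strands for GGNNTTTCC, where N is any base. Of the 34 tested NF-kB target genes, 28 had a window, and 19 of these (67.9%, Wilson 95% interval 49.3 to 82.1%) held a match, beside 7.61% of all 27305 genes with a window. The list holds genes known as NF-kB targets, so matches in their promoters are a description and no sign of binding in these cells. A stretch each of 4 promoters is printed 5′ to 3′ on the strand of the gene, with every match in capitals, because these genes are among the most clearly raised members.
CXCL1, chr4:73869295-73869392, plus strand: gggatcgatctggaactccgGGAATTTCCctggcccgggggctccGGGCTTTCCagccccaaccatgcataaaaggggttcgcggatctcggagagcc
CXCL8, chr4:73740433-73740531, plus strand: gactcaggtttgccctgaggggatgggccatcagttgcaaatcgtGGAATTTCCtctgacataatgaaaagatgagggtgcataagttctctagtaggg
TNFAIP3, chr6:137867159-137867257, plus strand: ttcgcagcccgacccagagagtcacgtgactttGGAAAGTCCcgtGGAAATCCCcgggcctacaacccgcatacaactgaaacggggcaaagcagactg
NFKBIA, chr14:35404777-35404875, minus strand: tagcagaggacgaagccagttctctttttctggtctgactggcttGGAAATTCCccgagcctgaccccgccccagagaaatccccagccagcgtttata
The stretches of CXCL1 and TNFAIP3 each hold 2 matches and those of CXCL8 and NFKBIA hold 1 match each. The match nearest to the start site began 53, 91, 55 and 81 bases before it in CXCL1, CXCL8, TNFAIP3 and NFKBIA. Among all genes raised or lowered by more than 2-fold only 70.6% and 68.8% had a window, fewer than the 80% set as the minimum, so a comparison of motif shares between these 2 sets is void and is not given. Of all tested genes 77.5% had a window, also under this minimum, and 9.05% of these windows held GGNNTTTCC.

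**Figure D2:**
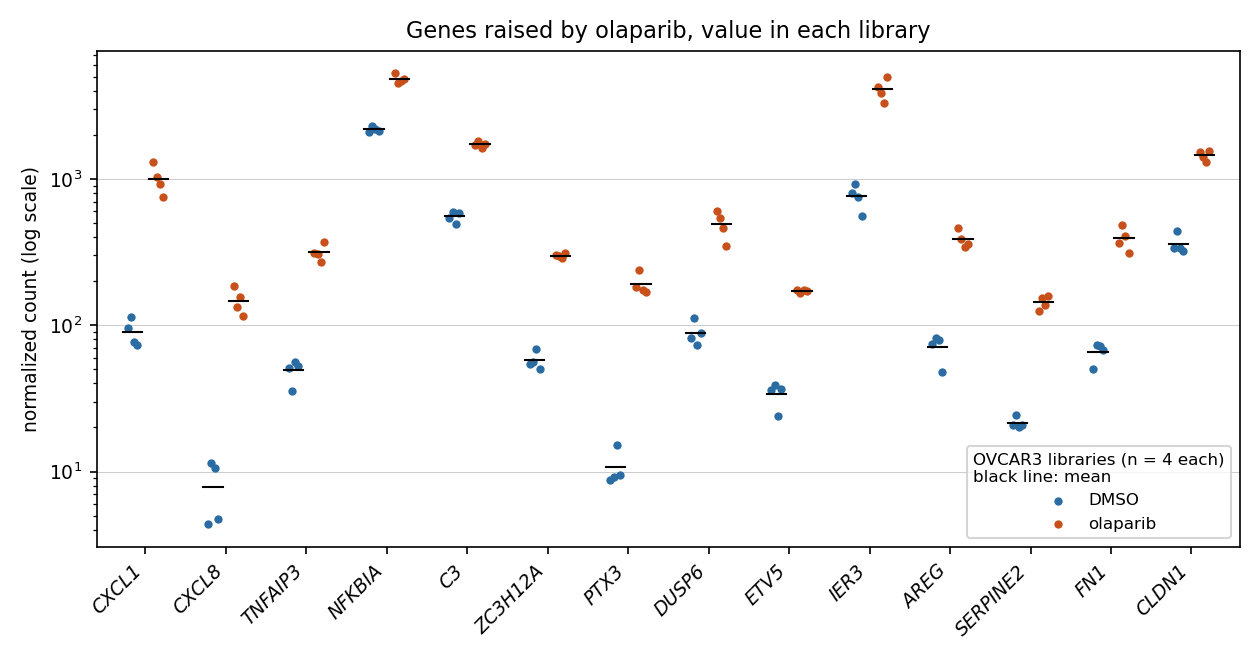
Normalized counts (log scale) of 14 raised genes in each of the 4 DMSO (blue) and 4 olaparib (orange) libraries of OVCAR3, with the group mean as a black line. The olaparib points lie above the DMSO points in all 14 genes.

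Another raised group consisted of genes induced by ERK signalling. ERK is the last kinase of the cascade that growth factor receptors start, and many of its targets switch it off again. Of 29 tested ERK feedback and ERK-induced genes, 17 were raised (13 by more than 2-fold) and 3 were lowered (EGR1, FOS and IER2), with a median log2 fold change of 0.83. IER2, at -0.21, lost its call under 4 of 16 alternatives. Without olaparib replicate 4, 21 were raised and 3 lowered.

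The feedback phosphatase DUSP6, which removes phosphate from ERK, had 81.8, 112, 73.5 and 88 normalized counts in the 4 DMSO libraries and 599, 544, 464 and 349 in the 4 olaparib libraries (log2 fold change 2.46 ± 0.16 SE, adjusted p = 6.96e-10). ETV5, an ETS transcription factor, had 36, 39.2, 23.9 and 36.9 normalized counts in the 4 DMSO libraries and 173, 167, 174 and 172 in the 4 olaparib libraries (log2 fold change 2.34 ± 0.16 SE, adjusted p = 1.73e-09), and its 4 olaparib values were nearly equal. IER3, an early response gene linked to cell survival, rose from 760.0 ± 154 to 4091 ± 695 normalized counts (log2 fold change 2.43 ± 0.13 SE, adjusted p = 1.22e-10), which put it among the 5 raised genes with the largest gain in read share. CCND1, the G1 cyclin D1, rose from 1117 ± 214 to 2363 ± 193 (log2 fold change 1.08 ± 0.1 SE, adjusted p = 2.12e-07). Against these rises, the immediate early transcription factor EGR1 had 1124, 1092, 1244 and 1478 normalized counts in the 4 DMSO libraries and 529, 403, 394 and 455 in the 4 olaparib libraries (log2 fold change -1.47 ± 0.11 SE, adjusted p = 3.98e-09), and all 4 olaparib libraries were below all DMSO libraries.

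AP-1 subunits split in the same way. FOSL1 (FRA1) had 4 reads in all in the DMSO libraries and 100 in the olaparib libraries (log2 fold change 4.4 ± 0.57 SE, adjusted p = 1.08e-05), while FOS fell by 1.16 on the log2 scale (from 159 ± 17.4 to 71.5 ± 22.6 normalized counts, adjusted p = 7.54e-05). Without DMSO replicate 2, which held most of the few reads, the fitted value of FOSL1 was 5.75. The stress-induced subunits ATF3 and MAFF were raised as well, from 55.8 ± 12.8 to 136 ± 14.9 and from 45.2 ± 10.3 to 133 ± 22.4 normalized counts. In all, 6 of 11 subunits were raised and 2 lowered. MYC had 10.9, 15, 27.7 and 15.1 normalized counts in the 4 DMSO libraries and 30.8, 33, 33.9 and 4.53 in the 4 olaparib libraries and was not called (log2 fold change 0.54 ± 0.43 SE, adjusted p = 0.393). Olaparib replicate 4 was far below the other 3, and without it MYC was raised (log2 fold change 0.90 ± 0.32 SE, adjusted p = 0.0341).

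Ligands of the EGF receptor family rose, while the receptor itself did not pass the test. AREG (amphiregulin) had 74.1, 81.8, 79.3 and 48.3 normalized counts in the 4 DMSO libraries and 458, 385, 341 and 358 in the 4 olaparib libraries (log2 fold change 2.45 ± 0.15 SE, adjusted p = 4.12e-10), and TGFA rose from 34.6 ± 3.37 to 106 ± 15.3 (log2 fold change 1.61 ± 0.18 SE, adjusted p = 1.30e-06). NRG1 and NRG2, ligands of the related receptors ERBB3 and ERBB4, had log2 fold changes of 1.04 ± 0.17 and 1.26 ± 0.2. EGFR stood at 457 ± 47.8 to 457 ± 45.7 (log2 fold change 0.00 ± 0.1 SE, adjusted p = 0.998). Of the 12 tested ligands and receptors 7 were raised and 3 were lowered.

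Mesenchymal state, integrin and matrix protease genes were raised more often than lowered, while genes of the matrix and of epithelial junctions moved to both sides. Of 27 collagens, laminins and matrix glycoproteins 11 were raised and 9 lowered (median log2 fold change 0.24), and of 32 epithelial junction genes 8 were raised and 12 lowered. Of 12 tested mesenchymal state genes 7 were raised and none lowered (median log2 fold change 1.0). Fibroblast markers summed to 149 to 210.1 normalized counts in the DMSO and 226 to 269 in the olaparib libraries, mostly COL1A1, with COL3A1, LUM and DPT at 0, and their part in these counts was not tested. Of 14 integrins 9 were raised and 2 lowered (median 0.66), and 1 was lowered without olaparib replicate 4, and of 24 plasminogen activators and matrix proteases 13 were raised and 3 lowered (median 0.35). FN1, the matrix protein fibronectin, had 50.2, 73.7, 72.6 and 67.2 normalized counts in the 4 DMSO libraries and 363, 484, 409.7 and 312 in the 4 olaparib libraries (log2 fold change 2.57 ± 0.15 SE, adjusted p = 3.11e-10). ITGB3, the β3 integrin subunit, had 25.1, 23, 8.6 and 7.57 normalized counts in the 4 DMSO libraries and 129, 113, 94.2 and 116 in the 4 olaparib libraries (log2 fold change 2.85 ± 0.27 SE, adjusted p = 1.74e-07), and ITGA5, the α5 subunit of the fibronectin receptor, rose from 24.5 ± 4.99 to 76.1 ± 4.08 (log2 fold change 1.64 ± 0.2 SE, adjusted p = 5.04e-06). SERPINE2, an inhibitor of plasminogen activators, had 20.7, 24.2, 20.1 and 20.8 normalized counts in the 4 DMSO libraries and 125, 152, 137 and 158 in the 4 olaparib libraries (log2 fold change 2.74 ± 0.17 SE, adjusted p = 5.78e-10), and the matrix protease ADAMTS9 rose from 19.2 ± 6.65 to 165 ± 24.9 (log2 fold change 3.08 ± 0.21 SE, adjusted p = 1.57e-09), while its relative ADAMTS15 fell from 344 ± 16.9 to 127 ± 7.62 (log2 fold change -1.44 ± 0.1 SE, adjusted p = 3.98e-09).

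TGF-beta genes were raised more often than lowered. Of 21 tested ligands, receptors and targets 9 were raised and 3 lowered. THBS1, the matrix protein thrombospondin 1 that can activate latent TGF-beta, had 27.3, 47.2, 43 and 36 normalized counts in the 4 DMSO libraries and 154, 186, 199.7 and 195 in the 4 olaparib libraries (log2 fold change 2.26 ± 0.17 SE, adjusted p = 5.52e-09). PMEPA1, a target that limits the signal, and the signal transducer SMAD3 rose by 1.54 ± 0.13 and 1.02 ± 0.1 on the log2 scale, while LTBP1, which holds latent TGF-beta in the matrix, fell from 742 ± 109 to 415 ± 33.7 (log2 fold change -0.84 ± 0.1 SE, adjusted p = 4.64e-06). None of TGFB1, TGFB2, TGFB3, TGFBR1 and TGFBR2 passed the test, with log2 fold changes from 0.02 to 0.67.

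Actin cytoskeleton genes driven by the transcription factor SRF moved as a block of small changes. Of 18 tested genes 16 were raised, none of them by more than 2-fold, with a median log2 fold change of 0.39. VCL (vinculin) rose from 658 ± 31.8 to 948 ± 49.8 (log2 fold change 0.53 ± 0.08 SE, adjusted p = 3.76e-05) and MYH9 (non-muscle myosin heavy chain) from 1519 ± 96.6 to 2084 ± 135 (log2 fold change 0.46 ± 0.07 SE, adjusted p = 0.000131). Targets of YAP and TEAD did not move in one direction, with 5 of 25 raised and 10 lowered. Among tubulins 9 of 18 were raised and none lowered, and TUBA4A had 675, 848, 818 and 590.4 normalized counts in the 4 DMSO libraries and 1939, 2063, 2085 and 2142 in the 4 olaparib libraries (log2 fold change 1.49 ± 0.1 SE, adjusted p = 7.59e-10). Tubulin genes are alike in sequence, so the split of reads among them is uncertain.

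Other genes of the cell surface were among the clearest rises. CLDN1, a tight junction protein, had 339, 439, 334 and 319 normalized counts in the 4 DMSO libraries and 1525, 1408, 1312 and 1557 in the 4 olaparib libraries (log2 fold change 2.02 ± 0.1 SE, adjusted p = 5.12e-11). SLC12A2, the sodium, potassium and chloride cotransporter NKCC1, had 815, 786, 811 and 913 normalized counts in the 4 DMSO libraries and 1969, 2109.9, 2013 and 2158 in the 4 olaparib libraries (log2 fold change 1.31 ± 0.07 SE, adjusted p = 2.22e-10). Both had all olaparib libraries above all DMSO libraries.

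Interferon-stimulated and antigen presentation genes were raised more often than lowered, by smaller amounts than the NF-kB targets. Of 38 tested interferon-stimulated genes 17 were raised, 4 of them by more than 2-fold, and 1 was lowered, with a median log2 fold change of 0.19. OAS3, a sensor enzyme of double-stranded RNA, rose from 93.2 ± 16.9 to 207 ± 9.87 (log2 fold change 1.16 ± 0.13 SE, adjusted p = 2.32e-06) and PLSCR1, a scramblase family member induced by interferon, from 262 ± 29.1 to 454 ± 31.1 (log2 fold change 0.79 ± 0.1 SE, adjusted p = 6.93e-06). Of 18 antigen presentation genes 10 were raised, 1 was lowered and 7 were not called (median 0.36). HLA-B, which presents peptides to T cells, had 189, 246, 242 and 189 normalized counts in the 4 DMSO libraries and 675, 602, 652 and 495 in the 4 olaparib libraries (log2 fold change 1.49 ± 0.12 SE, adjusted p = 1.19e-08), and B2M, its invariant partner, rose from 3458 ± 255 to 5450.4 ± 433 (log2 fold change 0.66 ± 0.08 SE, adjusted p = 2.32e-06). HLA genes are near-identical in parts and vary between people, so reads could be split among them. Of 32 interferon-stimulated genes with a promoter window, 23 (71.9%) held GAAANNGAA, the core letters of the interferon response element. The share was 9.86% of all windows and 8.53% of the windows of tested genes. The list holds genes known to respond to interferon, so this share is a description and no sign of binding in these cells. The stretches of both genes are shown, with the match in capitals.
OAS3, chr12:112938417-112938473, plus strand: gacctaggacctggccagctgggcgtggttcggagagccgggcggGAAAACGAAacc
PLSCR1, chr3:146544633-146544731, minus strand: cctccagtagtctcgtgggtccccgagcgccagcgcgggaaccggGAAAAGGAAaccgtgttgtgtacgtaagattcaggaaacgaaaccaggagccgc

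Cell cycle genes rose by small amounts at the same time as histone genes fell. Of 42 tested DNA replication genes 21 were raised and none lowered (median log2 fold change 0.28), and of 37 mitosis genes 19 were raised and none lowered (median 0.24). No member of either list passed 2-fold. Of 23 tested replication-dependent histone genes none was raised and 14 were lowered, 11 of them by more than 2-fold (median -0.90). Replication and histone genes are normally both active in S phase. Without olaparib replicate 4, 1 histone gene was raised and 14 were lowered.

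CCNE1, the cyclin E1 that starts S phase, had 652, 633, 627 and 622 normalized counts in the 4 DMSO libraries and 1109.7, 1221, 1149.9 and 1435 in the 4 olaparib libraries (log2 fold change 0.96 ± 0.09 SE, adjusted p = 7.54e-08). CDT1, which loads the replicative helicase, rose from 119 ± 7.43 to 195 ± 10.6 (log2 fold change 0.71 ± 0.12 SE, adjusted p = 0.000135) and MCM3, a helicase subunit, from 624 ± 21 to 820.0 ± 13 (log2 fold change 0.39 ± 0.07 SE, adjusted p = 0.000502). CDK1, the kinase that drives mitosis, had 1088, 1141, 1055 and 1149 normalized counts in the 4 DMSO libraries and 1623, 1619.8, 1633 and 1444 in the 4 olaparib libraries (log2 fold change 0.51 ± 0.07 SE, adjusted p = 3.00e-05), and HMMR, a spindle protein, rose from 448 ± 42.9 to 625 ± 30.2 (log2 fold change 0.48 ± 0.09 SE, adjusted p = 0.000338). MKI67, the proliferation marker Ki-67, rose from 3288 ± 198 to 3904 ± 389 (log2 fold change 0.25 ± 0.08 SE, adjusted p = 0.0238), whereas the sliding clamp PCNA had 0.09 ± 0.13 and was not called. Groups of CCNE1, CDT1, MCM3, CDK1, HMMR and MKI67 did not overlap.

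Of the 36 DNA replication genes with a promoter window, 21 (58.3%) held TTTNNCGC, the letters of the E2F site. The share was 8.23% of all windows and 13.1% of the windows of tested genes. In the 250 bases before the start alone 15 (41.7%) held it, so the share depends on the window. There it was 7.15% of all windows and 11.5% of those of tested genes. Of 31 mitosis genes with a window, 24 (77.4%) held TTTGAA, the cell cycle homology region known from G2 and M phase promoters. The share was 18.2% of all windows and 13.5% of the windows of tested genes. Matches on both strands were counted, and matches of different motifs were allowed to overlap. These shares are a description and no sign of binding in these cells. Stretches of 4 raised genes are given with their E2F (CDT1 and MCM3) or cell cycle homology region matches (CDK1 and HMMR) in capitals.
CDT1, chr16:88803709-88803788, plus strand: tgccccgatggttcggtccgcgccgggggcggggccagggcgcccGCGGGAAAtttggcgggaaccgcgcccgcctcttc
MCM3, chr6:52284840-52284937, minus strand: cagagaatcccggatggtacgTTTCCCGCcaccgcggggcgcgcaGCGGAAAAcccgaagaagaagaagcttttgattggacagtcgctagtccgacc
CDK1, chr10:60778420-60778477, plus strand: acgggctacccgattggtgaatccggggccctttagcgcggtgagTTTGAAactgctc
HMMR, chr5:163460565-163460631, plus strand: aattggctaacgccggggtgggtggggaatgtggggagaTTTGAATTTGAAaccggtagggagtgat

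Histone genes were lowered across classes. H1-2 (chr6:26055740-26056470 on the minus strand), a linker histone, had 2790.4, 2197, 2888 and 2482 normalized counts in the 4 DMSO libraries and 897, 848, 943 and 1024 in the 4 olaparib libraries (log2 fold change -1.48 ± 0.09 SE, adjusted p = 4.12e-10). H2AC6 and H2BC21, core histones H2A and H2B, fell from 328 ± 23.3 to 152 ± 19.9 (log2 fold change -1.11 ± 0.11 SE, adjusted p = 5.91e-07) and from 277 ± 35.4 to 122 ± 20.4 (log2 fold change -1.18 ± 0.13 SE, adjusted p = 1.60e-06). H4C3, a histone H4 gene and one of the 5 lowered genes with the largest loss in read share, had 4639.8, 5439, 5559 and 7127 normalized counts in the 4 DMSO libraries and 1899.8, 2215, 2103 and 4139 in the 4 olaparib libraries (log2 fold change -1.14 ± 0.18 SE, adjusted p = 7.35e-05). Its olaparib replicate 4 was close to the lowest DMSO library, while the other 3 olaparib libraries were alike. Most mRNAs of these genes normally end in a stem-loop and carry no poly(A) tail, so libraries primed at poly(A) count only the polyadenylated part of them. Histone genes are also alike in sequence, so reads could be split among copies.

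Genes of DNA repair and of the drug's targets moved little. Of 15 tested PARP and single-strand break repair genes 1 was raised, PARG, which removes ADP-ribose chains (from 66 ± 6.06 to 95 ± 17.4, log2 fold change 0.52 ± 0.17 SE, adjusted p = 0.0282). That call was lost without olaparib replicate 1, and 2 members were raised without olaparib replicate 4. PARP1 had 1807, 1819, 1739 and 1803 normalized counts in the 4 DMSO libraries and 1895, 1950.3, 1863 and 1904 in the 4 olaparib libraries (log2 fold change 0.09 ± 0.07 SE, adjusted p = 0.374) and PARP2 was at 0.21 ± 0.11, so neither target passed the test. Of 32 homologous recombination and Fanconi genes 6 (18.8%) were raised, near the 15.3% of all genes, 2 were lowered and 24 were not called. The raised count depended on the setting, with 8 without olaparib replicate 4, 9 with DESeq2 size factors in edgeR and 10 with library totals alone. The raised members with the smallest p were XRCC2, FANCD2, BRIP1 and BRCA2 (0.64, 0.33, 0.51 and 0.41 on the log2 scale). Groups of BRIP1 and BRCA2 overlapped. CDKN1A, the cell cycle inhibitor p21, had 42.5, 38, 53.5 and 52 normalized counts in the 4 DMSO libraries and 117, 144, 129 and 119.5 in the 4 olaparib libraries (log2 fold change 1.44 ± 0.16 SE, adjusted p = 1.60e-06). GDF15 and the death receptor FAS rose by 1.52 ± 0.17 and 1.93 ± 0.24, while RRM2B, a ribonucleotide reductase subunit, fell from 116 ± 10.6 to 62.9 ± 5.49 (log2 fold change -0.89 ± 0.15 SE, adjusted p = 0.000157). Of 26 tested p53 target genes 11 were raised and 3 lowered, and 5 were lowered without olaparib replicate 4.

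**Figure D3:**
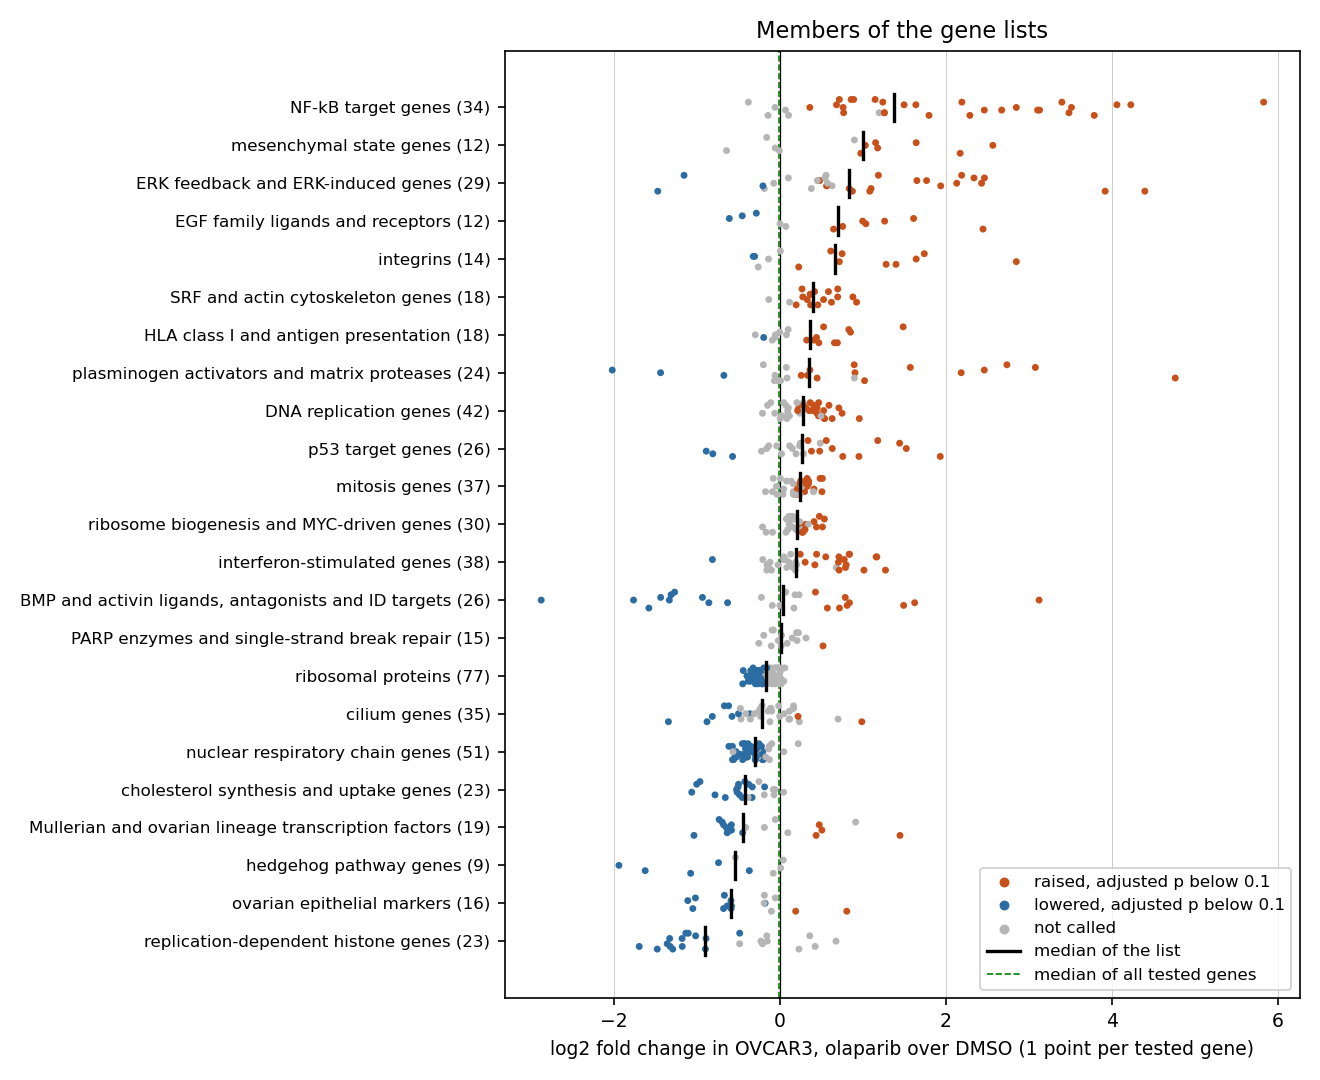
Log2 fold change in OVCAR3 (olaparib over DMSO) of each tested member of 23 gene lists, with the number of members in brackets, members raised in orange, lowered in blue and not called in grey. Black bars mark list medians, from -0.90 in the histone genes to 1.38 in the NF-kB targets, and the green dashed line marks the median of all tested genes.

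The 3 lowered genes with the smallest p, BMP7, FST and TMEM100, belong to BMP and activin signalling, which patterns embryonic tissues. Of 26 tested BMP and activin pathway genes 10 were lowered and 9 raised, beside 15.9% and 15.3% of all genes, so the list moved to both sides and had a median log2 fold change of 0.03. The 7 members lowered by more than 2-fold were the ligands BMP7 and BMP3, the antagonists FST, NOG and SOSTDC1, the receptor BMPR1B and the membrane protein TMEM100. The other 3 lowered members were the activin subunit INHBB, the antagonist CHRDL1 and the receptor ACVR2B (-0.93 ± 0.11, -0.86 ± 0.13 and -0.63 ± 0.13 on the log2 scale). The 9 raised members were ID1, ID2, ID3, ID4, SMAD6, SMAD7, SMAD9, FSTL3 and INHBA, so ligands and antagonists stood on both sides. The first 6 of the raised members are known as immediate targets of BMP or TGF-beta receptors.

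BMP7 (chr20:57168753-57266641 on the minus strand), a bone morphogenetic protein, had the smallest p among the lowered genes, with 4514, 4247, 4549.8 and 4575 normalized counts in the 4 DMSO libraries and 1651, 1835, 1752 and 1959 in the 4 olaparib libraries (log2 fold change -1.31 ± 0.07 SE, adjusted p = 1.33e-10). Values were close within each group, and all olaparib libraries were below all DMSO libraries. FST, which encodes follistatin, an antagonist of activin and of BMPs, had 1042, 797, 959.8 and 1115 normalized counts in the 4 DMSO libraries and 299, 274, 275 and 303 in the 4 olaparib libraries (log2 fold change -1.77 ± 0.1 SE, adjusted p = 2.09e-10). NOG, the BMP antagonist noggin, had 315, 344, 379 and 421 normalized counts in the 4 DMSO libraries and 141, 172, 165 and 129 in the 4 olaparib libraries (log2 fold change -1.27 ± 0.12 SE, adjusted p = 1.87e-07). TMEM100, a membrane protein induced by BMP receptors, had 1466, 1416, 1453 and 1426 normalized counts in the 4 DMSO libraries and 458, 547, 598 and 521 in the 4 olaparib libraries (log2 fold change -1.44 ± 0.08 SE, adjusted p = 2.45e-10). Of the raised members, INHBA, the β subunit of activin A, rose from 2.22 ± 2.31 to 21.1 ± 9.54 (log2 fold change 3.12 ± 0.53 SE, adjusted p = 0.000197), a call lost without olaparib replicate 2, and ID1 to ID4, inhibitors of basic helix-loop-helix factors, lay between 0.43 and 0.84.

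Co-receptors of hedgehog fell together. Of 9 tested hedgehog pathway genes 5 were lowered and none raised (median log2 fold change -0.54), and without olaparib replicate 4 the count was 4. GAS1 had 429.6, 426, 468 and 493 normalized counts in the 4 DMSO libraries and 137, 97.8, 161 and 77.9 in the 4 olaparib libraries (log2 fold change -1.94 ± 0.16 SE, adjusted p = 1.74e-08), BOC had 499, 443, 473 and 467 normalized counts in the 4 DMSO libraries and 247, 273, 194 and 181 in the 4 olaparib libraries (log2 fold change -1.08 ± 0.12 SE, adjusted p = 1.05e-06) and CDON fell from 32.7 ± 11.1 to 10.6 ± 4.04 (log2 fold change -1.63 ± 0.34 SE, adjusted p = 0.00155). All 3 encode surface proteins that bind the hedgehog ligand. Without olaparib replicate 4, BOC was no longer beyond 2-fold. In the WNT list 6 of 29 genes were lowered and 3 raised, and 10 were lowered without olaparib replicate 4. The 20.7% lowered is near the 15.9% of all genes. Among the lowered were the antagonist DKK2 (from 100.4 ± 22.6 to 24.3 ± 7.4, log2 fold change -2.03 ± 0.23 SE, adjusted p = 1.67e-06) and the receptors FZD4 and LGR4 (-1.5 ± 0.23 and -0.62 ± 0.1). In the NOTCH list 6 of 18 genes were lowered and 3 raised, with DTX4, LFNG, HEY2 and HES1 between -0.69 and -0.55.

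Other genes among the 15 lowered genes with the smallest p had varied roles. NPAS3, a transcription factor of the basic helix-loop-helix and PAS family, had 1034, 1101, 1026 and 935 normalized counts in the 4 DMSO libraries and 371, 305, 345 and 255 in the 4 olaparib libraries (log2 fold change -1.68 ± 0.1 SE, adjusted p = 4.12e-10). RAB11FIP4, an effector of the recycling GTPase RAB11, had 3871, 2768, 3370.3 and 3905 normalized counts in the 4 DMSO libraries and 1078, 1162, 1171 and 1355 in the 4 olaparib libraries (log2 fold change -1.55 ± 0.1 SE, adjusted p = 7.19e-10). THSD4, a matrix protein of the ADAMTS-like family, fell from 837 ± 109 to 279 ± 16.7 (log2 fold change -1.58 ± 0.1 SE, adjusted p = 4.64e-10). LMO3, a LIM-only transcriptional cofactor, had 496, 463, 527 and 553 normalized counts in the 4 DMSO libraries and 186, 179, 190.2 and 185 in the 4 olaparib libraries (log2 fold change -1.46 ± 0.09 SE, adjusted p = 6.88e-10), with olaparib values within a few counts of each other. SLC2A12, a glucose transporter, fell from 592 ± 37 to 219.8 ± 14.7 (log2 fold change -1.43 ± 0.09 SE, adjusted p = 6.03e-10) and GAB2, a docking protein of receptor tyrosine kinases, from 884 ± 78.7 to 356 ± 36.7 (log2 fold change -1.31 ± 0.09 SE, adjusted p = 2.72e-09). CLIC5, a chloride intracellular channel family member, and TMTC1, an enzyme of the endoplasmic reticulum that adds mannose to cadherins, had log2 fold changes of -1.39 ± 0.1 and -1.17 ± 0.08. Groups of all 8 genes were apart.

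**Figure D4:**
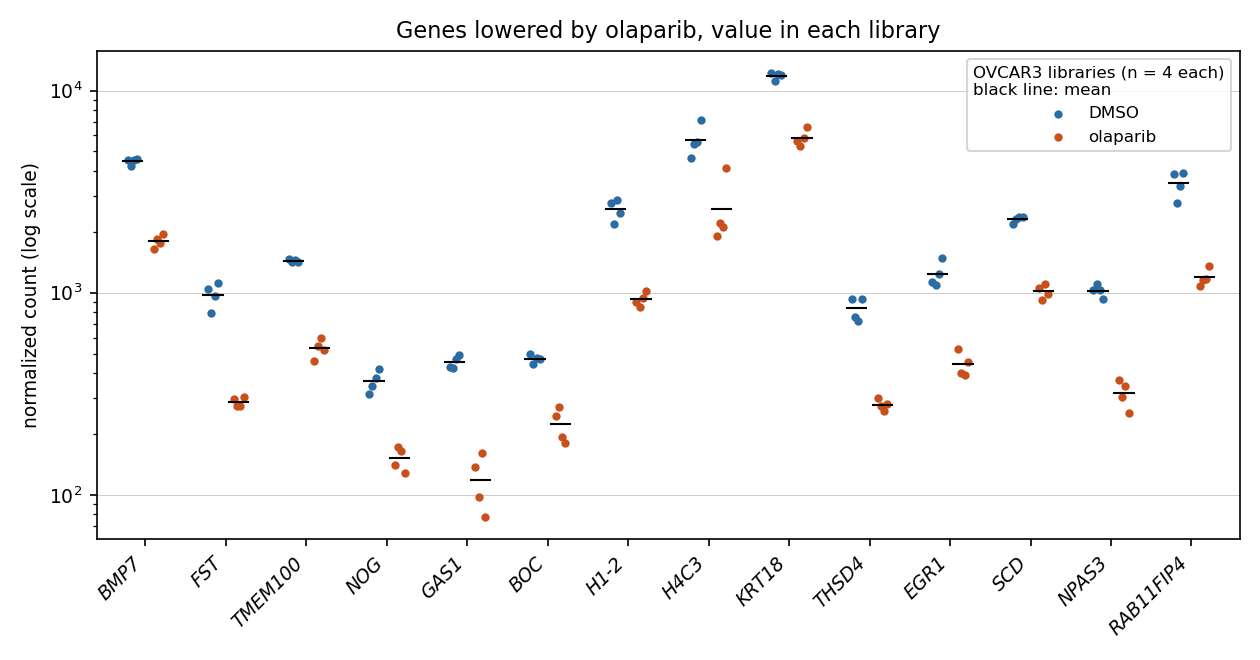
Normalized counts (log scale) of 14 lowered genes in each of the 4 DMSO (blue) and 4 olaparib (orange) libraries of OVCAR3, with the group mean as a black line. The olaparib points lie below the DMSO points in all 14 genes, and H4C3 in olaparib replicate 4 lies closest to its DMSO points.

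Epithelial and lineage genes were lowered more often than raised. Of the 16 ovarian epithelial markers 10 were lowered and 2 raised (median log2 fold change -0.59), and their summed normalized counts were 43779 to 45579 in the DMSO libraries and 31343 to 32908 in the olaparib libraries. The simple epithelial keratins KRT18 and KRT8 made up much of that sum. KRT18 had 12222, 11165, 12046 and 11916 normalized counts in the 4 DMSO libraries and 5620.3, 5313, 5836 and 6582 in the 4 olaparib libraries (log2 fold change -1.02 ± 0.07 SE, adjusted p = 2.72e-09) and KRT8 fell from 5496 ± 737 to 2653 ± 383 (log2 fold change -1.05 ± 0.1 SE, adjusted p = 2.26e-07). KRT8 and KRT18 are neighbours with overlapping exons on opposite strands, and how strand was used in counting is not given in the sources used here. Both stood near the 2-fold limit, and KRT18 fell below it without olaparib replicate 2 or with library totals alone and KRT8 without DMSO replicate 2 or olaparib replicate 4. KRT19 fell from 5354 ± 252 to 3363 ± 348 (log2 fold change -0.67 ± 0.08 SE, adjusted p = 2.02e-06), whereas WFDC2, the serum marker HE4, rose from 2778 ± 141 to 4853 ± 263 (log2 fold change 0.81 ± 0.07 SE, adjusted p = 4.46e-08). MUC16, which carries the CA125 antigen, varied between DMSO libraries (2349, 698, 1159 and 1324 normalized counts) and was at -0.59 ± 0.23 (adjusted p = 0.0628), a call lost under 7 of 16 alternatives.

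Keratins of stratified or stressed epithelium went the other way. KRT6A had 8.72, 8.06, 22 and 17 normalized counts in the 4 DMSO libraries and 115, 92.7, 74.4 and 116 in the 4 olaparib libraries (log2 fold change 2.79 ± 0.26 SE, adjusted p = 1.74e-07) and KRT23 rose from 90 ± 10.3 to 304 ± 42.6 (log2 fold change 1.76 ± 0.13 SE, adjusted p = 6.07e-09). In the keratin and cornified envelope list 7 of 15 genes were raised and 5 lowered, and 4 were raised without olaparib replicate 4. Of the junction genes besides CLDN1, CLDN16 rose by 1.55 ± 0.13 on the log2 scale, while CLDN3, a claudin of simple epithelium, and the desmosomal cadherin DSC2 had -0.96 ± 0.08 and -1.0 ± 0.08.

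Transcription factors of the Müllerian and ovarian lineage were lowered in 10 of 19 cases and raised in 4 (median -0.45). EMX2, a homeodomain factor of the urogenital tract, had 3091, 2883, 3068 and 2659 normalized counts in the 4 DMSO libraries and 2068, 1972, 2054 and 1708 in the 4 olaparib libraries (log2 fold change -0.58 ± 0.08 SE, adjusted p = 1.39e-05), and LHX1 and NR2F2 changed by -0.73 ± 0.08 and -0.7 ± 0.08. WT1 had 839, 739, 777 and 834 normalized counts in the 4 DMSO libraries and 528, 545, 605 and 315 in the 4 olaparib libraries (log2 fold change -0.68 ± 0.13 SE, adjusted p = 0.000804). PAX8, a member of the same list, was at -0.06 ± 0.08 and was not called.

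Lipid synthesis genes fell. Of 23 tested cholesterol synthesis and uptake genes 16 were lowered and none raised (median log2 fold change -0.42). HMGCS1, which makes the precursor of mevalonate, had 2658, 3374, 2974 and 3117 normalized counts in the 4 DMSO libraries and 1594, 1393, 1624 and 1600.2 in the 4 olaparib libraries (log2 fold change -0.96 ± 0.08 SE, adjusted p = 3.33e-08), and INSIG1, a sterol-regulated brake on the pathway, fell from 211 ± 32.7 to 101 ± 24.2 (log2 fold change -1.06 ± 0.16 SE, adjusted p = 4.42e-05). TM7SF2, a sterol reductase, and FDFT1, squalene synthase, had -0.78 ± 0.09 and -0.52 ± 0.09. In the fatty acid list 9 of 22 genes were lowered and 3 raised. SCD, the desaturase that makes monounsaturated fatty acids, had 2186, 2321, 2379.9 and 2361 normalized counts in the 4 DMSO libraries and 1060.3, 919.5, 1099 and 989.8 in the 4 olaparib libraries (log2 fold change -1.18 ± 0.08 SE, adjusted p = 5.78e-10), and the elongase ELOVL6 fell from 483 ± 51 to 338 ± 14.3 (log2 fold change -0.52 ± 0.09 SE, adjusted p = 0.000364).

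Respiratory chain and ribosomal protein genes shifted down by small steps. Of 51 tested nuclear genes of the respiratory chain 41 were lowered and none raised, none beyond 2-fold, with a median log2 fold change of -0.3. COX5B, a subunit of cytochrome c oxidase, had 2226, 1962, 2149.8 and 2380.5 normalized counts in the 4 DMSO libraries and 1420.0, 1449, 1488 and 1548 in the 4 olaparib libraries (log2 fold change -0.56 ± 0.07 SE, adjusted p = 1.23e-05), and ATP5MC3, a subunit of ATP synthase, fell from 4414 ± 400.3 to 2879.8 ± 272 (log2 fold change -0.62 ± 0.08 SE, adjusted p = 1.15e-05). Of 77 ribosomal protein genes 41 were lowered and none raised (median -0.17), and 33 with library totals alone in place of TMM. RPS27 had 6103, 6556, 6312 and 6276 normalized counts in the 4 DMSO libraries and 4368, 4622, 5405 and 4092 in the 4 olaparib libraries (log2 fold change -0.45 ± 0.08 SE, adjusted p = 0.000246) and RPS16 fell from 89173 ± 1742 to 70313 ± 3562 (log2 fold change -0.34 ± 0.06 SE, adjusted p = 0.000263). With library totals alone the medians were -0.28 and -0.15, and the direction of both was the same under all alternatives. Genes of ribosome biogenesis moved the other way, with 10 of 30 raised and none lowered (median 0.21), among them the helicase DDX21 and the nucleolar protein NOP56 (0.44 ± 0.07 and 0.47 ± 0.08).

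Transcripts of mitochondrial DNA did not follow the nuclear respiratory chain genes. Of the 13 mitochondrial mRNAs 1 was raised and 1 lowered, and 5 were raised without olaparib replicate 4. MT-ND6, the only mRNA read from the light strand of mitochondrial DNA, had 3103, 2980.1, 3104 and 2934 normalized counts in the 4 DMSO libraries and 5943, 5310.3, 4499.7 and 5542 in the 4 olaparib libraries (log2 fold change 0.81 ± 0.08 SE, adjusted p = 2.26e-07), while MT-CO2 was at -0.28 ± 0.11 (adjusted p = 0.0635), a call lost under 6 of 16 alternatives. Of 16 tested mitochondrial tRNA genes 12 were raised and none lowered (median 0.62), among them MT-TL1, which was named after its values were seen, with 7108, 9329.6, 8885 and 7802 normalized counts in the 4 DMSO libraries and 14769.9, 14036, 11439 and 16909 in the 4 olaparib libraries (log2 fold change 0.79 ± 0.1 SE, adjusted p = 8.18e-06). Mature tRNAs carry no long poly(A) tail, so what these libraries count at tRNA genes is not given by the files. At MT-ND6, reads of the opposite strand cannot be told apart if strand was not used in counting.

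Long non-coding RNA genes stood out among the lowered genes. By the biotypes of GENCODE release 44, which covered 94.7% of tested genes, 103 of 493 lncRNA genes (20.9%) were lowered and 31 (6.29%) were raised, against 15.7% and 16.3% of 11642 protein-coding genes. Their median log2 fold changes were -0.19 and 0.00. Among genes averaging above 100 normalized counts 36 of 78 lncRNA genes (46.2%) were lowered and 6 raised, against 18% lowered of 7140 protein-coding genes. Without olaparib replicate 4, 107 of 493 lncRNA genes were lowered and 35 raised. No test of lncRNA genes against other genes was run. The annotation's missing 687 genes, mostly with clone-based names, had 111 (16.2%) lowered and 36 (5.24%) raised. Their lowered share was near the 15.9% of all tested genes, and their raised share was below the 15.3% of all tested genes.

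**Figure D5:**
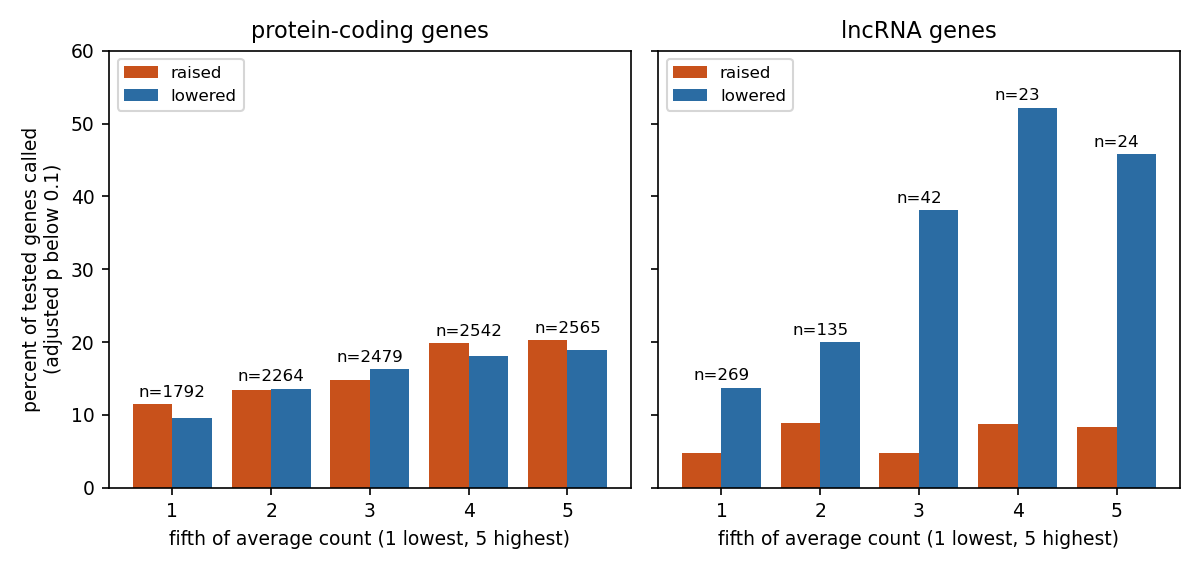
Percentage of tested genes raised (orange) or lowered (blue) in OVCAR3 at an adjusted p below 0.1, for protein-coding genes (left) and lncRNA genes (right). The 5 classes by average normalized count are of equal size over all tested genes but not within a panel. The number of genes stands above each pair of bars. In lncRNA genes the lowered share exceeds the raised share in all 5 classes and reaches 52.2% (12 of 23 genes) in the fourth.

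Among the lncRNA genes above 100 counts, named here after their values were seen, LINC02672, PART1 and OLMALINC fell by more than 2-fold, with log2 fold changes of -1.4 ± 0.11, -1.71 ± 0.14 and -1.03 ± 0.13. SNHG25, a host gene of small nucleolar RNAs and the most abundant of the lowered lncRNAs, had 8847, 9171, 9241 and 11433 normalized counts in the 4 DMSO libraries and 4421, 5055, 4886 and 5419 in the 4 olaparib libraries (log2 fold change -0.97 ± 0.08 SE, adjusted p = 5.30e-08). EMX2OS, which lies opposite EMX2, fell from 854 ± 62.4 to 484 ± 10.4 (log2 fold change -0.82 ± 0.08 SE, adjusted p = 2.35e-07) alongside EMX2. Of the 6 raised lncRNA genes CYTOR was the largest (1.12 ± 0.12). Antisense genes could be paired with the gene they are named after in 182 cases. Of the 34 lowered antisense genes, the partner was lowered in 5, raised in 5 and not called in 24. Of the 17 lowered genes among 72 divergent transcripts (names ending in DT), the partner was lowered in 6, raised in 3 and not called in 8. Reads of overlapping genes on opposite strands cannot be told apart if strand was not used in counting.

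Channels and second messenger enzymes supplied several of the steeper falls at low counts. Of 21 tested potassium channel genes 6 were raised and 6 lowered, with KCNK15, KCNJ5 and KCNQ5 lowered (-1.3 ± 0.16, -1.98 ± 0.3 and -1.19 ± 0.22) and KCNQ3 raised (2.32 ± 0.28). The phosphodiesterase PDE11A fell from 35.5 ± 16.3 to 5.39 ± 3.96 (log2 fold change -2.69 ± 0.45 SE, adjusted p = 0.00018). Of 35 cilium genes 8 (22.9%) were lowered, beside 15.9% of all genes, 2 were raised and 25 were not called. Among the lowered were the ciliary transcription factor RFX3 (-0.82 ± 0.13) and the calcium-binding protein CAPS (-1.35 ± 0.18), the only member beyond 2-fold. Of 445 zinc finger genes 47 (10.6%) were lowered and 26 (5.84%) raised, shares below those of all genes, and of 213 solute carriers 36 (16.9%) and 33 (15.5%), close to all genes.

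Stress programmes differed in their share of calls, beside 15.3% raised and 15.9% lowered among all genes. Of 20 unfolded protein response chaperones 2 were raised (4 without olaparib replicate 4) and 1, XBP1, was lowered. Of 16 heat shock proteins 6 were raised, with the small heat shock protein CRYAB (from 227 ± 44.8 to 507 ± 17.2, log2 fold change 1.16 ± 0.11 SE, adjusted p = 2.24e-07) as the only member beyond 2-fold. Of 20 NRF2 target genes 8 were raised and 1 lowered, led by the transporter ABCC3 (1.66 ± 0.27) and the ferritin chains FTH1 and FTL (0.42 ± 0.07 and 0.31 ± 0.08). Hypoxia and glycolysis genes were raised in 5 and lowered in 5 of 26 cases, with EGLN3 at 0.94 ± 0.14 and NDRG1 at -0.8 ± 0.08. Of 23 amino acid and integrated stress response genes 5 were raised and 3 lowered, of 32 lysosome and autophagy genes 7 and 3, of 16 steroid hormone-responsive genes 3 and 3, and of 17 phosphodiesterase and cyclase genes 2 and 5. None of 3 metallothioneins was called, and 1 was raised without olaparib replicate 4. CTSB, the lysosomal protease cathepsin B, rose from 5016 ± 443 to 9324 ± 414 (log2 fold change 0.89 ± 0.07 SE, adjusted p = 1.87e-08).

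A test of the difference between the lines showed which parts of this response differed from that of UWB1.289. In an interaction contrast over all 16 libraries 236 of 14243 genes (1.66%) had a log2 fold change higher by more than 1 in OVCAR3 and 285 (2.0%) had a lower one. Of 29 ERK feedback and ERK-induced genes 13 were higher in OVCAR3 and 1 lower. Of 34 NF-kB target genes 9 were higher and none lower, while the list's median log2 fold change was 1.38 in OVCAR3 and 1.04 in UWB1.289. Of 21 TGF-beta genes 6 were higher, and of 23 histone genes 7 were lower, where UWB1.289 had 7 raised and 6 lowered. Of 38 interferon-stimulated genes 27 were lower in OVCAR3 and none was higher, with medians of 0.19 and 1.90. No member of the cholesterol, respiratory chain or ribosomal protein lists differed by this test, which needs a difference of more than 1. OVCAR3 changes ran only from -0.62 to 0.22 (respiratory chain) and from -0.45 to 0.06 (ribosomal), so the test could hardly call those genes. Of 51 respiratory chain genes 41 were lowered in OVCAR3 and 6 in UWB1.289, with medians of -0.30 and -0.12. Of 77 ribosomal protein genes 41 and 10 were lowered, and of 23 cholesterol genes 16 and 14. These lists were not tested as a whole for a difference between the lines. Dose, medium and BRCA1 state differ with the line in all of these values.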

How the data were processed

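RNA of the 16 samples was made into 3′ tag libraries. Per the labels and the submitters' processing notes, the authors aligned reads to hg38 with STAR 2.7.9a and counted them per gene with featureCounts 2.0.0; strand and multi-mapping settings are not given in the sources used here. The deposited values are raw read counts per gene, with totals of 5706282 to 7152552 in the 8 OVCAR3 libraries.

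Counts were tested with edgeR 4.0.16 in R 4.3.3 (TMM, filterByExpr, quasi-likelihood test, Benjamini-Hochberg adjustment over all 13031 genes). Calls needed an adjusted p below 0.1 and an average normalized count above 10. Normalized counts are counts scaled by the TMM library size. The interaction used all 16 libraries. The fit was tested on simulated data. Alternatives were DESeq2 1.42.0, other scalings and filters, a replicate block and leaving out each library. In the 12 pairs of OVCAR3 libraries of the same group, no 2 libraries agreed within sampling noise. The UWB1.289 libraries were not compared in this way. The sources do not say how separate the 4 replicates were.

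Named genes were, among genes beyond 2-fold with groups apart and without clone-based names, the 10 raised and 15 lowered with the smallest p and the 5 of each with the largest difference in read share, up to 4 called members of each list with the smallest p, and fixed genes such as PARP1 and MKI67. Other members named were chosen after their values were seen. The gene set and lists were chosen with earlier results of these data known. Coordinates and biotypes come from GENCODE release 44. The Wilson interval treats the promoters of a list as independent draws and covers no other error.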

Additional observations from a re-analysis of the deposited data

Results flagged for a closer look

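Among the named genes, 19 of 358 groups of 4 libraries (5.31%) held 1 library far from the others, judged by its gap to the nearest library divided by the range of the group against Dixon's critical value. Chance alone gives about 1 in 20 such groups. The ratio is given in brackets after each gene. A single high DMSO library was seen in CLDN1 (0.831), CRYAB (0.843), CX3CL1 (0.856), INHBA (0.958), OAS3 (0.968), PTX3 (0.887), SAA1 (1.0) and SNHG25 (0.848). A single low DMSO library was seen in ADAMTS9 (0.919) and GAB2 (0.839). A single high olaparib library was seen in ELOVL6 (0.967), H4C3 (0.859) and OLMALINC (0.874). A single low olaparib library was seen in BRCA2 (0.844), BRIP1 (0.853), CDK1 (0.93), HMGCS1 (0.87), MYC (0.895) and WFDC2 (0.845). In MYC the apart library was olaparib replicate 4, with 4.53 normalized counts against 30.8 to 33.9 in the other 3 olaparib libraries, and in H4C3 it was also olaparib replicate 4. In SAA1 and INHBA the DMSO values are counts of a few reads.

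The response differed between OVCAR3 and UWB1.289 in 50 named genes by the interaction test of edgeR (Benjamini-Hochberg adjusted p below 0.1 and a difference of more than 1). Differences in brackets are the log2 fold change in OVCAR3 minus that in UWB1.289, and line, dose, medium and BRCA1 state cannot be told apart in them. Larger rises or smaller falls in OVCAR3 were found for FOSL1 (3.84), DUSP6 (2.91), CXCL8 (2.91), PTX3 (2.7), ITGB3 (2.7), SMAD9 (2.68), ETV5 (2.46), FN1 (2.37), ABCC3 (2.21), SERPINE2 (1.98), IER3 (1.85), CXCL1 (1.8), KCNQ3 (1.8), FAS (1.78), ITGA5 (1.75) and AREG (1.69). The same side held CLDN1 (1.67), CLDN16 (1.6), CX3CL1 (1.55), KRT6A (1.53), NRG1 (1.4), EGR1 (1.35), CCND1 (1.34), SMAD7 (1.26), TGFA (1.24), TGFB1 (1.19), THBS1 (1.19), ADAMTS9 (1.15), TUBA4A (1.15), CYTOR (1.08), PMEPA1 (1.05) and CDT1 (1.03). On the other side were H2BC21 (-2.14), H2AC6 (-2.12), GAS1 (-2.1), NPAS3 (-1.98), FZD4 (-1.85), FST (-1.75), KCNQ5 (-1.71), TMTC1 (-1.6), GAB2 (-1.49), THSD4 (-1.48), CLIC5 (-1.36), OAS3 (-1.32), MUC16 (-1.28), RAB11FIP4 (-1.2), NDRG1 (-1.13), CHRDL1 (-1.08), NOG (-1.05) and HES1 (-1.0). DUSP6 changed by 2.46 in OVCAR3 and -0.45 in UWB1.289 on the log2 scale (adjusted p of the difference 2.14e-11). FST changed by -1.77 in OVCAR3 and -0.02 in UWB1.289 on the log2 scale (adjusted p of the difference 1.92e-08). H2AC6 changed by -1.11 in OVCAR3 and 1.01 in UWB1.289 on the log2 scale (adjusted p of the difference 5.59e-09). EGR1 changed by -1.47 in OVCAR3 and -2.82 in UWB1.289 on the log2 scale (adjusted p of the difference 0.000348), so it was lowered less in OVCAR3. OAS3 changed by 1.16 in OVCAR3 and 2.48 in UWB1.289 on the log2 scale (adjusted p of the difference 1.19e-06). GAS1 had too few counts for a test in UWB1.289 alone.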

How the results depend on the processing

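Counting error and 4 libraries a group limit small changes in genes with few counts, and p-values measure the spread between these libraries. With an average normalized count above 50 in place of 10, fewer genes could be called by construction, and 165 genes were raised and 120 lowered beyond 2-fold while 297 differed between the lines. Under the other alternatives these counts and those at any size stayed within 1.5 times their values. Leaving out 1 library gave 368 to 416 raised and 281 to 347 lowered genes beyond 2-fold, 1641 to 2173 raised and 1687 to 2198 lowered genes at any size, and 451 to 530 genes that differed between the lines. DESeq2 gave 376 and 290 beyond 2-fold. No called fold change of a named gene reversed its direction.

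With the replicate number as a replicate block, 377 genes were raised and 311 lowered beyond 2-fold, 2083 and 2174 at any size, and 537 differed between the lines. Same-numbered libraries correlated at 0.0867, 0.184, 0.0583 and 0.145 over 9365 genes, and 3 of 4 numbers correlated best with themselves, a hint of pairing. The sample labels give both groups and both lines the same numbers after the letter E, and what the letter stands for is not stated. Since 2 of the 4 values were below 0.1 and the labels name no shared batch, the numbers were not taken as pairs. Pairing is therefore not excluded.

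Of the 94 named genes called beyond 2-fold, 69 kept that call under all 16 alternatives. Those that lost it when 1 library was left out included FOS, BOC, NRG1, SMAD3, INSIG1 and OLMALINC. SAA1 lost it under 4 alternatives, and without DMSO replicate 1 its log2 fold change was 7.46. Without DMSO replicate 1 CCL20 was at 3.99, and without DMSO replicate 4 INHBA was at 4.16. The median log2 fold change changed sign under 4 alternatives in the BMP list, 6 in the YAP list, 2 in the metallothioneins and 1 each in the keratins, the amino acid and integrated stress response genes and the mitochondrial mRNAs. After the data were seen, list counts were repeated without olaparib replicate 4, which moved the lowered WNT genes from 6 to 10 and the raised mitochondrial mRNAs from 1 to 5. The causes were not tested.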
